A study of Mus musculus with 4 samples.

Results

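The genes described here are 32 genes of sterol and fatty acid synthesis, chosen by symbol out of 31253 genes measured, in single-cell RNA counts of F4/80-sorted mouse peritoneal cells. F4/80 is a surface protein of mature macrophages and is encoded by Adgre1. Of the 32 genes, 22 form the sterol branch (enzymes on the way from acetyl-CoA to cholesterol and the regulators Srebf2, Scap, Insig1 and Stard4) and 10 the fatty acid branch (supply of acetyl-CoA and NADPH, chain building, elongation and desaturation). All 32 were found in the matrix. They were chosen as pathway genes, without use of their measured values, but with earlier results of these data known.

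The study had 4 groups with 1 sample each, all of peritoneal cells from mice labelled 24 weeks old. They were C57BL/6 mice on a normal diet, Apoe-/- mice on a normal diet, Apoe-/- mice on a high-fat diet (HFD), and Apoe-/- HFD mice given anti-CVI-mAb, a monoclonal antibody to collagen VI. Apoe-/- mice lack apolipoprotein E, a lipoprotein component that helps clear cholesterol-rich particles from blood, and have high blood cholesterol. The Apoe-/- mice of both HFD groups were on a C57BL/6 background and male, the diet held 21% fat and 0.15% cholesterol, began at 4 weeks of age and lasted 20 weeks, and a normal diet came back a week ahead of the first immunization. At week 21 the antibody group got 3 mg in 200 µL into the peritoneum and the HFD group PBS. Both normal-diet groups also got PBS, but no label gives the week for them. No label gives the sex of the normal-diet mice or how many mice were pooled for a sample. The counts form a single matrix whose 4 libraries carry a numeric suffix that no label or header ties to a group. Differences between the 4 groups were therefore not computed, values are given for libraries 1 to 4, and each comparison sets cells of a library against other cells of the same library.

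After removal of barcodes with fewer than 500 genes or more than 10% mitochondrial UMIs (counts of single captured transcripts), 20864 of 26811 barcodes remained, and the share removed was 42.3% in library 1 against 11 to 19.3% in the others. Macrophages (at least 2 Adgre1 UMIs, no Cd79a, no Cd3e) numbered 1538, 4218, 4334 and 5017 in libraries 1 to 4, at median depths of 8218.5 to 13951 UMIs. B cells (at least 3 Cd79a UMIs, no Adgre1) numbered 281 to 586, and T cells (at least 2 UMIs of Cd3d, Cd3e and Cd3g together, no Adgre1) 104 to 158, although the sort was for F4/80. The 6 macrophage markers summed to 34780 CPM or more in macrophages and to at most 1460 CPM in B cells. The 6 B cell markers summed to at least 7288 CPM in B cells and at most 55.95 CPM in macrophages. These sums include Adgre1 and Cd79a, so the class rules fixed part of both gaps. Of markers outside the rules, Csf1r was at 423.3 to 927.9 CPM in macrophages and 12.69 to 24.78 CPM in B cells. Cd79b was at 2005 to 2165 CPM in B cells and 1.954 to 20.21 CPM in macrophages. Beside these, erythroid markers reached 1033 CPM in the B cells of library 1 and mast cell markers 326.4 CPM in the T cells of library 1. Of the kept barcodes, 85 have a sequence that occurs in another library too.

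Animal cells build cholesterol from acetyl-CoA through mevalonate, isoprenoids, squalene and lanosterol, and build fatty acids from malonyl-CoA. SREBP-2, the product of Srebf2, drives sterol genes when membrane sterol is low: Scap carries it from the endoplasmic reticulum to the Golgi for cleavage, and Insig proteins hold Scap back when sterol is plentiful. SREBP-1c, from Srebf1, and the glucose-responsive factor ChREBP, from Mlxipl, drive fatty acid genes. Macrophages that take up lipoprotein cholesterol are known to lower their own sterol synthesis, and sterol synthesis is also known to be raised in dividing cells.

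Regulatory sequence upstream of 6 members is shown because the comparisons below turn on them: Insig1, Acly and Elovl5, higher in macrophages than in lymphocytes, Srebf2 and Fasn, lower in macrophages, and Hmgcs1, whose transcripts were used to split macrophages. Each run is reference sequence from RefSeq (GRCm38.p6), 5′ to 3′ on the gene's strand, and ends before the gene start in both RefSeq and GENCODE M21. Capitals mark matches, on either strand, to TCACNCCAC (a sterol regulatory element), CACGTG (an E-box) and CCAAT (the NF-Y box, which reads ATTGG on the other strand). The runs cover chr13:119690101-119690350 (+ strand) for Hmgcs1, chr5:28071162-28071362 (+) for Insig1, chr15:82147019-82147180 (+) for Srebf2, chr11:100528001-100528250 (- strand) for Acly, chr11:120824548-120824797 (-) for Fasn and chr9:77917115-77917363 (+) for Elovl5.
Hmgcs1: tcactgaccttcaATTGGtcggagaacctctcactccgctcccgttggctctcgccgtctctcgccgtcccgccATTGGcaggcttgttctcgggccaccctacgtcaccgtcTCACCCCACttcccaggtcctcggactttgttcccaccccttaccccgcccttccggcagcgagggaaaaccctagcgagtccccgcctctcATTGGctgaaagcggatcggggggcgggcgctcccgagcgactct
Insig1: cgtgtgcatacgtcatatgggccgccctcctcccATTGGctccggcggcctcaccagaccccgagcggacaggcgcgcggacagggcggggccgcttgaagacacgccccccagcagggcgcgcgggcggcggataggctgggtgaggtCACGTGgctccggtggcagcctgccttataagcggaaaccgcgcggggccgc
Srebf2: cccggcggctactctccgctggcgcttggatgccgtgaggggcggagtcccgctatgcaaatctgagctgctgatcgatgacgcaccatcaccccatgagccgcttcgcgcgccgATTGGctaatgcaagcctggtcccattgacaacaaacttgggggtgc
Acly: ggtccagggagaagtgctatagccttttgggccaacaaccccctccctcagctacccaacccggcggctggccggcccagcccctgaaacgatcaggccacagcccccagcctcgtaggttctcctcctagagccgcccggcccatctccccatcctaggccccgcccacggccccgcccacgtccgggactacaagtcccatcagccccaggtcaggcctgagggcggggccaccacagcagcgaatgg
Fasn: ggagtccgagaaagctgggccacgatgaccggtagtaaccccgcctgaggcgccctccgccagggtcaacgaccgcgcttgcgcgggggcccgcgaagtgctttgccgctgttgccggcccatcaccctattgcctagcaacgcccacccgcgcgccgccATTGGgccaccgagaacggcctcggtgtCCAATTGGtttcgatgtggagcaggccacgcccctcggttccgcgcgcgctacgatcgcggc
Elovl5: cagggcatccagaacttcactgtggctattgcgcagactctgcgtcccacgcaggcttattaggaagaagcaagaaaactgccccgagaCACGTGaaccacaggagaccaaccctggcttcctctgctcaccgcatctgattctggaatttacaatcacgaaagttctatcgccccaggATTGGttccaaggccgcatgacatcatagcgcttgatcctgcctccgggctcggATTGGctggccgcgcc

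Promoter windows of 300 bases, from 250 before to 50 after the gene start, were given for 25 of the 32 members among 32851 windows in all; some members have more than 1 window, 30 in all. A CCAAT match lay in 20 of these 30 windows, against 37.4% of all windows. By gene it lay in a window of 20 of the 25 members, 16 of 18 in the sterol branch and 4 of 7 in the fatty acid branch. In the Acly window the CCAAT match lies after the start and so is outside the run shown. TCACNCCAC was found in 1 of the 30 windows, that of Hmgcs1, against 1.24% of all windows, and CACGTG in 7 windows of 6 members (Hsd17b7, Insig1, Dhcr7, Sc5d, Elovl5 and Scap), against 7.15%. GGGCGG, the GC box bound by Sp1, not marked above, was found in 22 of the 30 windows against 35.7% of all windows. These motifs do not share letters except where CCAAT meets its reverse, as in the CCAATTGG of Fasn. A match describes letters, and no binding was measured here.

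Levels are UMIs of a gene summed over the cells of a class in a library, scaled to 1000000 UMIs of that class and library (CPM, counts per 1000000), with exact 95% Poisson intervals, which cover counting error only. Each transcript is counted from its 3′ end, so levels are not scaled by gene length, and how well each gene is captured is unknown. In the macrophages of libraries 1 to 4 the sterol branch summed to 324.3 CPM (314.7 to 334.2), 372.5 CPM (367.4 to 377.6), 243.2 CPM (239.3 to 247.0) and 237.8 CPM (234.1 to 241.5). The fatty acid branch summed to 758.4 CPM (743.6 to 773.3), 652.2 (645.5 to 659.0), 523.6 (517.9 to 529.3) and 469.9 (464.7 to 475.1). Libraries 1 and 2 were above libraries 3 and 4 for both branches, but for the sterol branch the gap of library 1 depended on the scaling. With totals rescaled by the median ratio of all genes, the sterol sums were 257.6, 354.3, 252.2 and 255.7 CPM, so that library 1 was close to libraries 3 and 4, and the fatty acid sums 602.3, 620.4, 543.0 and 505.4 CPM.

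**Figure D1:**
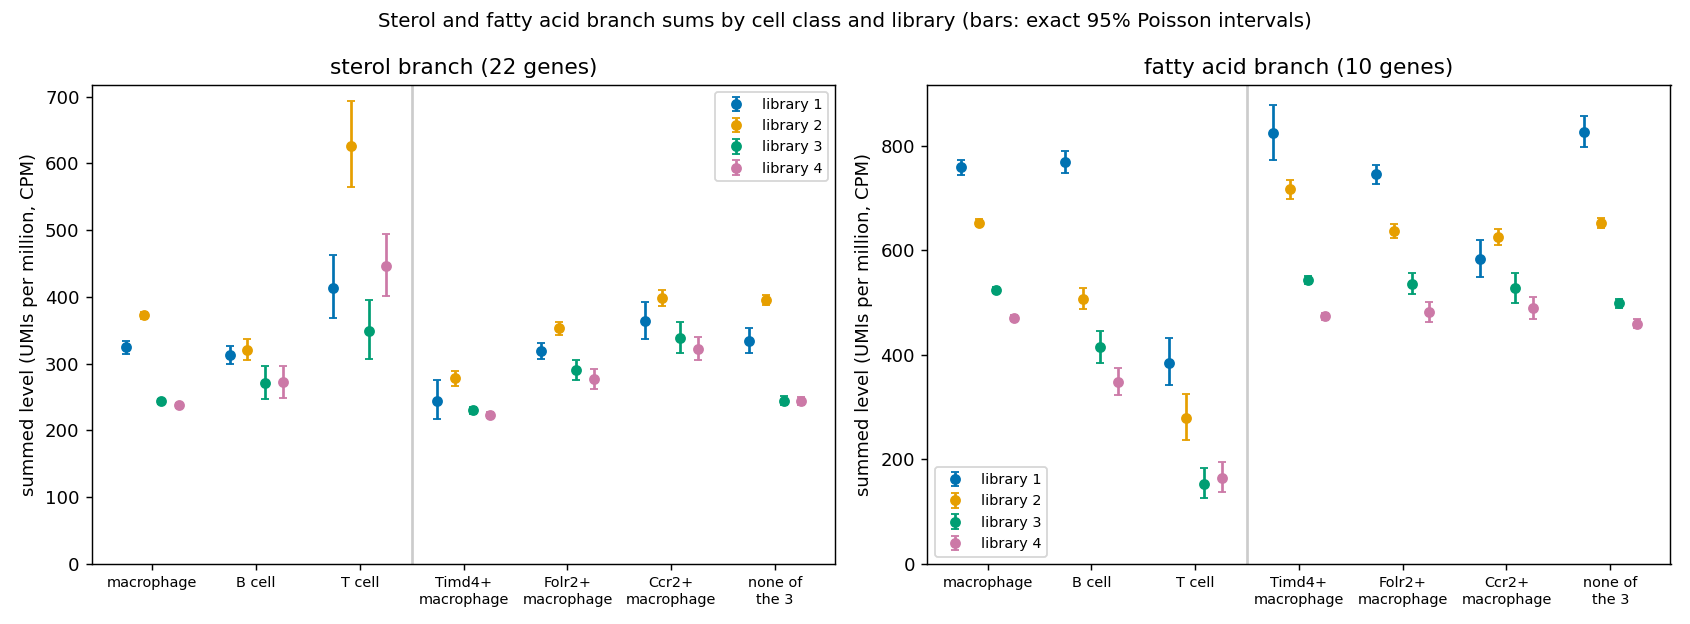
Summed level in CPM (vertical axis) of the 22 sterol and the 10 fatty acid genes in each cell class and macrophage subset (horizontal axis), 1 point per library with its exact 95% Poisson interval. In macrophages the sterol sum lies between 237.8 and 372.5 CPM and the fatty acid sum between 469.9 and 758.4 CPM, and T cells have the highest sterol sums and the lowest fatty acid sums of the 3 cell classes in every library.

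Among sterol genes of macrophages, Ebp had the highest median level. It encodes the sterol isomerase that moves a ring double bond late in the pathway, and its level was 41.1, 82.0, 73.4 and 75.9 CPM in turn, with library 1 the lowest. Insig1, whose protein retains Scap, stood at 53.2, 34.4, 22.6 and 21.5 CPM, and Srebf2 at 44.5, 34.8, 15.9 and 15.9 CPM, both highest in library 1. Pmvk (phosphomevalonate kinase) measured 20.7, 29.3, 22.9 and 21.1 CPM, the narrowest span over libraries in the branch, 1.41-fold between highest and lowest.

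The enzyme that commits acetyl-CoA to the pathway, Hmgcs1 (HMG-CoA synthase), was at 22.9, 19.1, 10.4 and 10.4 CPM in macrophages. Farther along, Idi1 (isopentenyl diphosphate isomerase) measured 14.1, 19.5, 6.83 and 5.34 CPM. Fdps (farnesyl diphosphate synthase) was at 3.997, 21.1, 8.89 and 6.96 CPM, the widest span of the branch among members that reached 10 CPM, 5.28-fold. Library 2 was the highest for Idi1 and Fdps, libraries 3 and 4 the lowest for Idi1, and library 1 the lowest for Fdps. Fdps has 8 other genes whose 3′ ends resemble its own at 90% identity or more and Idi1 has 4, so reads of these may be split or lost by the counting; for Fdps, Gm43738, which shares its 3′ end and strand, is in the matrix.

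Msmo1 (sterol C4 methyl oxidase) measured 19.8, 20.0, 11.96 and 13.1 CPM, Scap 17.9, 11.9, 9.77 and 9.89 CPM and Sc5d (lathosterol desaturase) 25.8, 17.9, 12.8 and 12.7 CPM. All of these were lower in libraries 3 and 4. Stard4, a sterol carrier, reached 11.5 CPM in library 2 and was under 10 CPM in the others. The other 11 sterol genes were below 10 CPM in every library: the thiolase Acat2, the kinase Mvk, the decarboxylase Mvd, squalene synthase Fdft1, squalene epoxidase Sqle, lanosterol synthase Lss, and the demethylation and reduction enzymes Cyp51, Tm7sf2, Nsdhl, Hsd17b7 and Dhcr7. Sqle (1.89, 4.44, 1.00 and 0.890 CPM), Tm7sf2 (2.79, 1.97, 1.11 and 0.905 CPM) and Hsd17b7 (1.81, 3.43, 1.65 and 1.78 CPM) had the lowest median levels, and Tm7sf2 shares exon sequence with Vps51.

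In the fatty acid branch, 3 genes carried most macrophage UMIs. Acly, the ATP citrate lyase that makes cytosolic acetyl-CoA for both branches, was at 466.5, 349.9, 258.9 and 261.0 CPM, the highest of all 32 members in every library. Elovl5, an elongase of polyunsaturated fatty acids, measured 165, 127, 121 and 96.2 CPM. Acaca, the acetyl-CoA carboxylase that makes malonyl-CoA, measured 102, 117, 117 and 94.3 CPM and had the narrowest span of the branch, 1.24-fold. Acly and Elovl5 were highest in library 1, and Acaca hardly differed between libraries.

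Fasn, the fatty acid synthase that uses malonyl-CoA, was far below Acaca at 6.86, 14.3, 8.64 and 6.79 CPM. Scd2, a stearoyl-CoA desaturase, stood out in library 2 with 34.2 CPM, while libraries 1, 3 and 4 had 7.92, 8.18 and 4.81 CPM, a span of 7.12-fold, the widest among members that reached 10 CPM. The remaining 5 genes were under 10 CPM in every library. They were the desaturases Scd1 (5.35, 2.55, 1.16 and 0.489 CPM), Fads1 (2.94, 1.59, 0.810 and 0.801 CPM) and Fads2, the elongase Elovl6 (0.905, 4.70, 1.48 and 1.2 CPM) and Me1, the malic enzyme that supplies NADPH (0.226, 1.21, 5.75 and 4.39 CPM). Fads2 had 0, 5, 1 and 1 UMIs in the macrophages of the 4 libraries and none in B or T cells. Me1 also had no UMI in B cells, which allows up to 0.448, 0.620, 1.65 and 1.52 CPM (3 UMIs of each library's B cells), or in T cells, which allows up to 4.08, 5.07, 4.17 and 3.69 CPM. Fads2 was thus near the limit of detection. Fads1, with 39, 88, 51 and 54 UMIs, was low but above the level of 3 UMIs in every library.

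**Figure D2:**
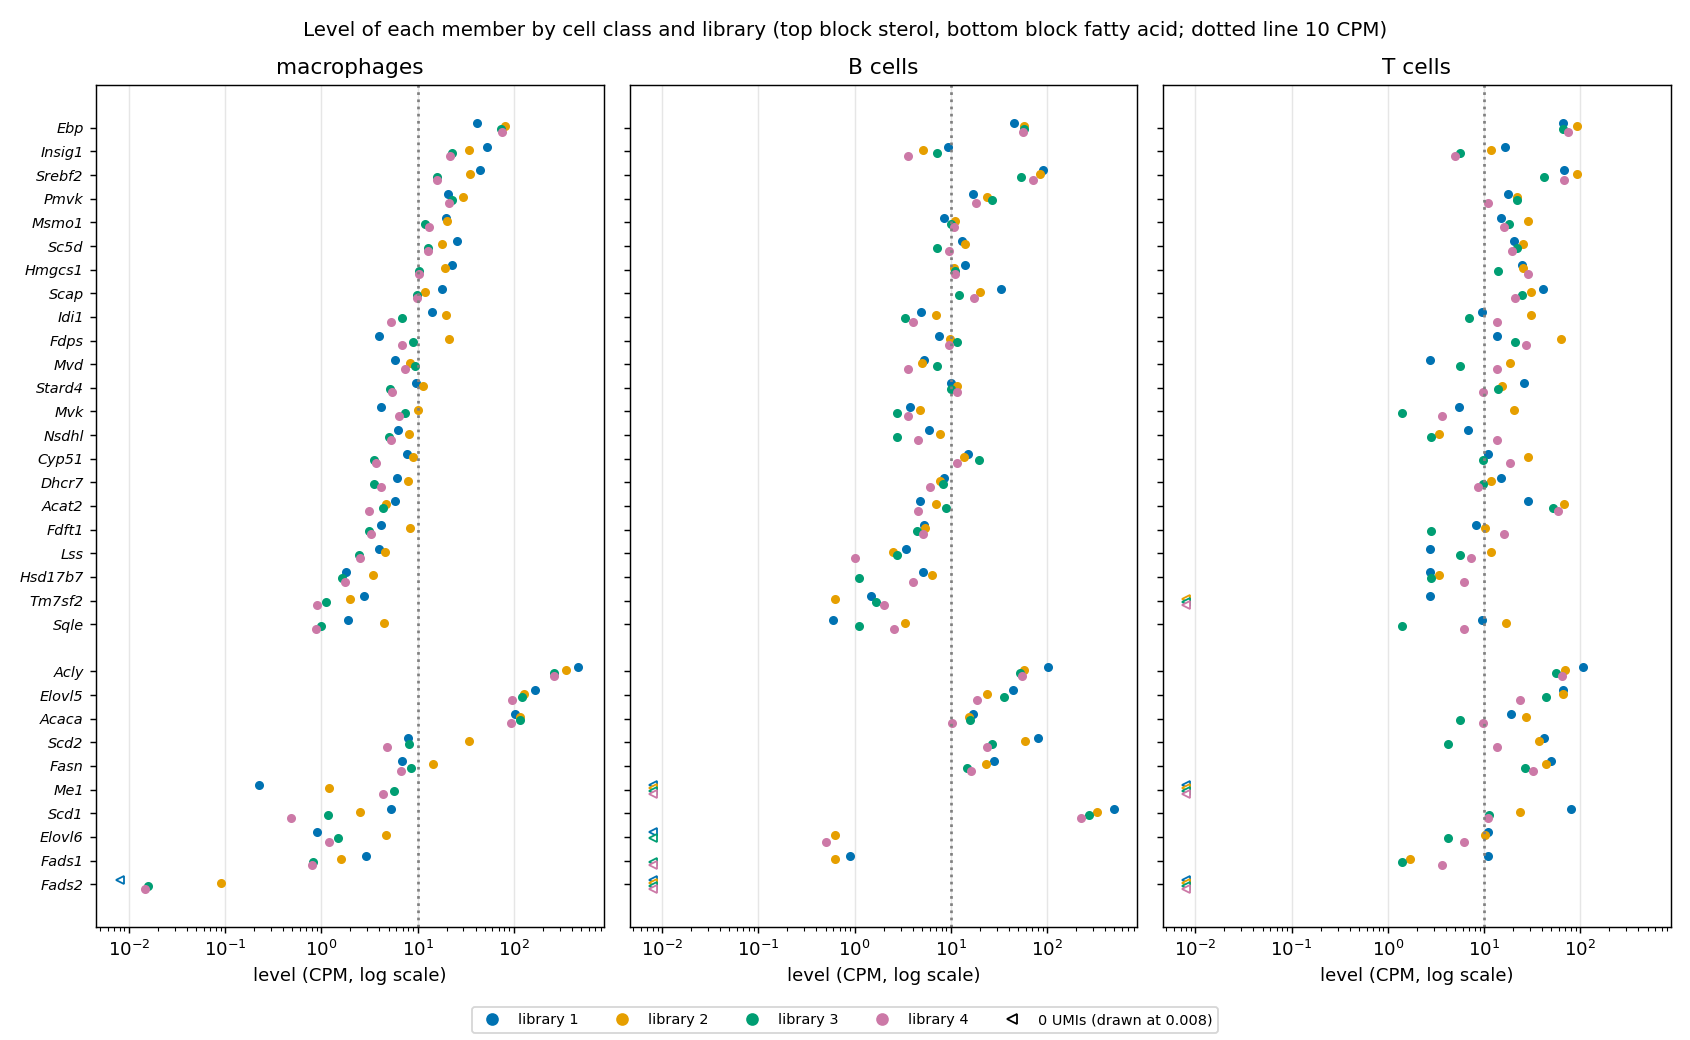
Level of each of the 32 genes in CPM (horizontal axis, log scale) in macrophages, B cells and T cells, 1 point per library, genes ordered within each branch by their median in macrophages. Acly, Elovl5 and Acaca stand right of the other fatty acid genes in macrophages, Scd1 is the rightmost gene in B cells, and Fads2 and Me1 have no UMI in B or T cells.

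Macrophages were then compared with B cells of the same library. A gene was tested where whichever class had more of it reached 10 CPM in every library, and it counted as higher or lower with a ratio of at least 1.5-fold in the same direction in each of the 4 libraries. Of 15 members tested, 4 were higher in macrophages (Insig1, Acaca, Acly and Elovl5) and 5 lower (Cyp51, Srebf2, Fasn, Scd1 and Scd2). Over all 7511 genes tested, 20.5% were higher and 16.0% lower. The shares among the members were somewhat above these, over only 15 genes. Medians of the log2 ratio (macrophages over B cells) of the 9 sterol genes tested were 0.29, 0.34, -0.13 and 0.19, against 0.02, 0.05, -0.03 and -0.07 for all genes.

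Different steps of fatty acid synthesis were at the higher level in each class. Acly was 4.58- to 6.04-fold higher in macrophages, where B cells had 101.9, 57.9, 51.8 and 55.4 CPM. Acaca was 6.02- to 9.28-fold higher, with 17.0, 15.5, 16.0 and 10.2 CPM in B cells. Elovl5 was 3.44- to 5.39-fold higher, with 43.7, 23.6, 35.3 and 18.8 CPM in B cells. Macrophages thus had more transcript of the enzymes that make acetyl-CoA, malonyl-CoA and long polyunsaturated chains. Fasn, which lies between malonyl-CoA and palmitate, went the other way: B cells had 27.8, 22.9, 14.9 and 16.2 CPM, and macrophages were 4.05-, 1.60-, 1.72- and 2.39-fold lower.

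Insig1 was 5.74-, 6.66-, 3.15- and 6.05-fold higher in macrophages, with 9.25, 5.17, 7.17 and 3.56 CPM in B cells. Srebf2 was 2.06-, 2.44-, 3.36- and 4.45-fold lower in macrophages, with 91.8, 85.0, 53.5 and 70.6 CPM in B cells. The transcript of the factor was thus higher in B cells and that of its retention protein higher in macrophages, in all 4 libraries. Scap, their partner, missed the rule at 1.83-, 1.70-, 1.24- and 1.75-fold lower. Cyp51 (lanosterol demethylase), at 15.1, 13.8, 19.8 and 11.7 CPM in B cells, was 1.94-, 1.53-, 5.68- and 3.16-fold lower in macrophages. The 3′ end of Cyp51 lies over Akap9 on the opposite strand, and no label says whether reads were counted by strand.

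Scd1 and Scd2 encode desaturases that make oleic and palmitoleic acid, and lie 87590 bp apart on chromosome 19, Scd2 at chr19:44293674-44306864 (+ strand) and Scd1 at chr19:44394455-44407879 (- strand) in GRCm38. Their 3′ ends are not alike at 90% identity or more. Scd1 was the member with the highest level in B cells, 497.8, 327.9, 269.5 and 223.4 CPM in libraries 1 to 4, and was 93.0-, 129-, 232- and 456-fold lower in macrophages. At a fixed depth of 3000 UMIs a cell, an Scd1 UMI was found in 76.0, 63.8, 52.7 and 42.4% of B cells and in 1.65, 0.721, 0.464 and 0.100% of macrophages; without thinning, at median depths of 4859 to 9508.5 UMIs in B cells and 8218.5 to 13951 in macrophages, it was 97.4, 84.4, 66.9 and 74.0% against 4.42, 3.13, 1.62 and 0.558%.

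The Scd1 level in macrophages was 1.08, 0.777, 0.430 and 0.219% of that in B cells, and that of Cd79b, a B cell receptor gene that macrophages should lack, was 0.934, 0.305, 0.0974 and 0.112%. The Scd1 share was close to the Cd79b share in library 1 and above it in the others. The macrophage rule requires cells with no Cd79a UMI, which also lowers Cd79b, so free RNA and low Scd1 expression cannot be told apart. Scd2 differed between the classes less, with 79.7, 58.3, 26.5 and 23.9 CPM in B cells and macrophages 10.1-, 1.70-, 3.23- and 4.97-fold lower. Its level in macrophages was 9.93, 58.7, 30.9 and 20.1% of the B cell level, far above the share seen for Cd79b. Macrophages thus had Scd2 transcript and little Scd1, and B cells had both.

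**Figure D3:**
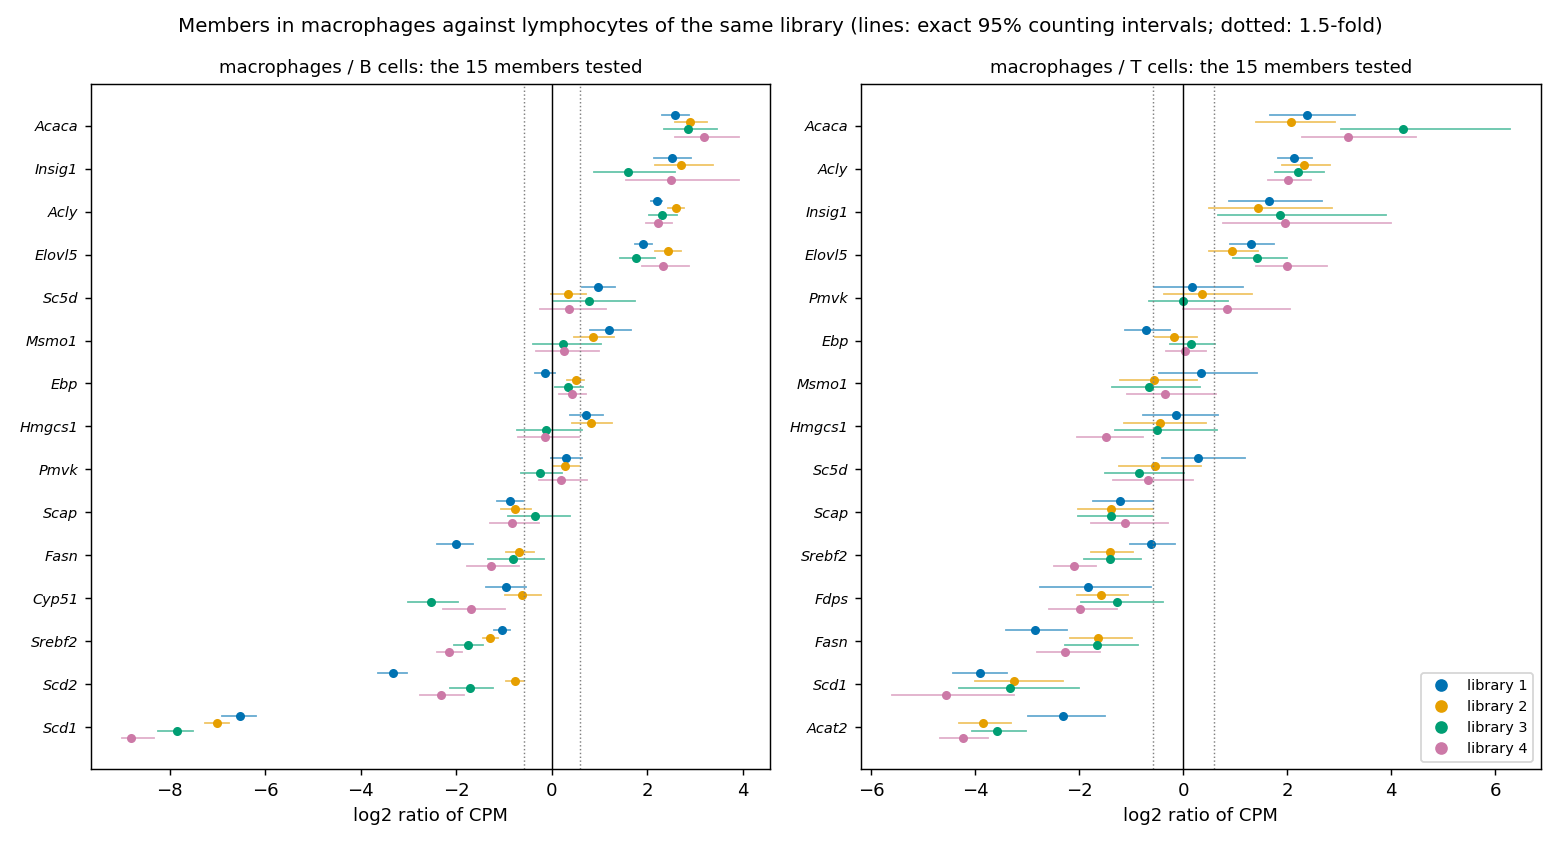
Log2 ratio (horizontal axis) of each tested gene in macrophages over B cells (left) or T cells (right) of the same library, 1 point per library with its exact 95% counting interval; dotted lines mark 1.5-fold. Acaca, Insig1, Acly and Elovl5 lie right of the dotted line in every library of both panels, and Scd1 is leftmost against B cells.

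The fatty acid branch sum in macrophages stood to that in B cells at log2 ratios of -0.02, 0.36, 0.34 and 0.43, but these sums are made of different genes. Without Scd1 the ratios were 1.47, 1.86, 1.85 and 1.91, and without Acly -1.19, -0.57, -0.45 and -0.49. Without Acly the sum was thus lower in macrophages in every library, and without Scd1 it was higher in every library. The sterol sum differed little and not in the same direction, at log2 ratios of 0.05, 0.22, -0.15 and -0.19. Cyp51 and Fasn each missed the rule under 5 of 19 other settings and Scd2 under 2 of 19, whereas Insig1, Srebf2, Acaca, Acly, Elovl5 and Scd1 passed under all 19. The 6 macrophage markers summed to 779.6, 1007, 1460 and 1411 CPM in B cells against 34780, 43100, 50950 and 60920 CPM in macrophages; the part of macrophage RNA in the B cell levels was not tested.

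Against T cells, 4 of 15 members tested were higher in macrophages and 6 lower, while 16.1% of 7614 genes were higher and 19.5% lower. Higher were again Insig1, Acaca, Acly and Elovl5, and lower were Fdps, Srebf2, Scap, Acat2, Fasn and Scd1. These comparisons share the macrophages with those against B cells. The 10 sterol genes tested had median log2 ratios of -0.38, -0.56, -0.74 and -0.90, against -0.21, -0.13, -0.21 and -0.26 for all genes. The sterol sum in T cells was 413.5, 626.5, 348.6 and 445.6 CPM, above that in macrophages in every library, and the fatty acid sum 384.9, 278.6, 152.8 and 163.7 CPM, below it in every library.

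Acat2, the thiolase that makes acetoacetyl-CoA, had 28.6, 67.5, 51.4 and 59.1 CPM in T cells against 5.88, 4.75, 4.37 and 3.16 CPM in macrophages, 4.86- to 18.7-fold lower in macrophages. In B cells it was at 4.78, 7.03, 8.82 and 4.57 CPM, so T cells were apart from both other classes. The 3′ end of Acat2 is shared at 98.6% identity with Acat3, which is in the matrix, so its counts may be split. Fdps measured 13.6, 62.5, 20.8 and 27.1 CPM in T cells and was 3.40-, 2.96-, 2.34- and 3.89-fold lower in macrophages. T cells had 49.0, 43.9, 26.4 and 32.0 CPM of Fasn, and macrophages were 7.14-, 3.06-, 3.05- and 4.71-fold lower. Scap was at 40.8, 30.4, 25 and 20.9 CPM in T cells and 2.12- to 2.56-fold lower in macrophages.

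Among the genes higher in macrophages, Acly had 106, 69.2, 55.5 and 64.0 CPM in T cells and Elovl5 66.7, 65.9, 44.4 and 23.4 CPM. Acaca had 19.0, 27.0, 5.55 and 9.85 CPM and Insig1 16.3, 11.8, 5.55 and 4.92 CPM in T cells. The macrophage levels were 1.93-fold higher or more for all 4 genes in every library. Srebf2, at 68.0, 91.2, 41.7 and 67.7 CPM in T cells, was 1.53-fold lower in the macrophages of library 1 and 2.62- to 4.27-fold lower in the others; it missed the rule under 9 of 19 other settings. Cell cycle genes (15 genes summed) were at 667.8, 234.7, 423.6 and 520.7 CPM in T cells and 159.7, 579.1, 414.1 and 314.4 CPM in macrophages. Without cells that had 2 or more UMIs of these genes, 3 members in place of 6 were lower, with Fdps, Srebf2 and Scd1 no longer past the rule. That step used counts without thinning, so deeper cells were left out more readily. The median log2 ratios of Fdps, Srebf2 and Scd1 stayed below 0 under all 19 settings. The part of cell division in these calls was not tested.

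Scd1 in T cells, 80.2, 23.6, 11.1 and 11.1 CPM, rested on cells that also met the B cell rule. These were 10, 4, 6 and 7 of the 116, 104, 158 and 139 T cells. Without them, an alternative chosen after seeing the data, Scd1 UMIs in T cells went from 59, 14, 8 and 9 to 3, 0, 1 and 0, and the median log2 ratio to macrophages from -3.62 to -0.33. Cd79b in T cells went from 390.4, 106.4, 130.5 and 103.4 CPM to 36.7, 12.9, 3.00 and 5.51 CPM by the same step. Scd1 and Srebf2 were then no longer past the rule and Stard4 was, so that 5 members were lower in macrophages, whereas Acat2 in T cells stayed at 34.9, 73.5, 55.6 and 60.6 CPM and Fasn at 55.9, 47.8, 28.6 and 31.7 CPM.

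B cells and T cells of the same library also differed in these genes, a comparison added after seeing the data. Of 17 members tested, 2 were higher in B cells (Scd1 and Scd2) and 5 lower (Fdps, Msmo1, Sc5d, Acat2 and Fasn), against 6.96% and 11.9% of 7167 genes. Acat2 was 5.98-, 9.61-, 5.83- and 12.9-fold lower in B cells, and Msmo1, at 8.51, 10.96, 9.92 and 10.7 CPM in B cells and 15.0, 28.7, 18.1 and 16.0 CPM in T cells, was 1.5- to 2.62-fold lower, with 0 inside the interval of the log2 ratio except in library 2. The sterol sum was lower in B cells in every library, at log2 ratios of -0.40, -0.97, -0.36 and -0.71. The fatty acid sum was higher in B cells at 1.00, 0.86, 1.44 and 1.09, but without Scd1 it stood at -0.17, -0.51, 0.03 and -0.29. T cells therefore carried more transcript of sterol enzymes and of Fasn, and B cells had their fatty acid excess in Scd1. Of 6 cell cycle genes tested, 5 were lower in B cells (Top2a, Tyms, Mcm6, Pcna and Stmn1), and 442 CPM or more of NK cell markers were summed in the T cell class; the part of either in these differences was not tested.

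Other genes of both pathways were counted by the same rule. Of 12 further sterol genes, 9 were tested against B cells, with 1 higher and 1 lower in macrophages. Over all genes 20.5% were higher and 16.0% lower. Against T cells 8 were tested, again with 1 higher and 1 lower, beside 16.1% and 19.5% of all genes. Aacs, acetoacetyl-CoA synthetase, was lower in macrophages than in B cells (3.77, 5.17, 2.43 and 2.17 CPM against 17.3, 15.3, 11.02 and 11.2 CPM). Erg28, a scaffold of sterol demethylation, was lower in macrophages than in T cells (24.7, 29.9, 24.7 and 22.3 CPM against 43.5, 47.3, 73.6 and 60.3 CPM). Insig2, the other Insig gene, was not past the rule against B cells, with 25.6, 19.7, 17.9 and 17.1 CPM in macrophages and 21.6, 19.9, 21.5 and 19.8 CPM in B cells, whereas Insig1 was.

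Of 16 further fatty acid genes, 10 were tested against B cells and 7 were higher in macrophages, none lower, beside 20.5% of all genes higher and 16.0% lower. These were the citrate carrier Slc25a1, the acyl-CoA synthetases Acsl4 and Acsl5, the phosphatidate phosphatase Lpin1, the NADPH-making Pgd and G6pdx, and Mlxipl. Against T cells 5 of 10 were higher (Slc25a1, Acsl1, Pgd, G6pdx and Mlxipl) and none lower, beside 16.1% and 19.5% of all genes. Mlxipl, the ChREBP gene, measured 205, 142, 93.6 and 110 CPM in macrophages, 12.2, 5.17, 9.92 and 7.11 CPM in B cells and 28.6, 5.07, 2.78 and 7.39 CPM in T cells. Slc25a1, which exports the citrate that Acly cleaves, measured 40.1, 45.2, 34.0 and 32.0 CPM in macrophages against 15.5, 22.3, 13.8 and 14.7 CPM in B cells. Srebf1, at 24.1, 21.9, 13.9 and 12.04 CPM in macrophages and 18.7, 17.4, 8.82 and 10.2 CPM in B cells, was not past the rule, in contrast to Srebf2 and Mlxipl.

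Macrophages were also split by Timd4, a receptor of long-resident macrophages, at 3 or more UMIs; such cells numbered 122, 541, 2069 and 2655. No member of 10 tested differed by 1.5-fold from the other macrophages in all libraries, as against 0.398% higher and 0.265% lower among 6783 genes. All the same, 5 of 7 sterol genes tested (Msmo1, Sc5d, Pmvk, Ebp and Srebf2) had log2 ratios below 0 in all 4 libraries, against 11.6% of all genes. The median log2 ratio of the 7 was -0.65, -0.32, -0.18 and -0.27, and that of all genes -0.03, 0.07, 0.04 and 0.02. The sterol sum was 244.2, 277.9, 230.1 and 222.8 CPM in Timd4+ macrophages, at log2 ratios of -0.44, -0.49, -0.16 and -0.21 to the others, with Elovl5 above 0 in all libraries (22.2% of all genes), while the fatty acid sum stood at 0.13, 0.16, 0.11 and 0.03.

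Srebf2 was at 27.4, 21.7, 14.6 and 14.4 CPM in Timd4+ macrophages and 46.1, 37.1, 17.3 and 17.9 CPM in the others. Ebp was at 24.8, 59.7, 68.9 and 74.4 CPM against 42.6, 85.9, 78.1 and 78.0 CPM. For both, the gap was wide in libraries 1 and 2 and small in libraries 3 and 4. Members under 10 CPM were not counted, but Me1 was at the higher level in Timd4+ macrophages in each library: 0.885, 7.24, 8.08 and 5.43 CPM against 0.165, 0.149, 3.28 and 3.01 CPM in the others, resting in library 1 on 3 UMIs in all, where its interval holds 0. Sqle (0, 1.45, 0.709 and 0.416 CPM against 2.06, 4.97, 1.31 and 1.52 CPM) and Cyp51 (3.54, 4.10, 2.71 and 2.70 CPM against 8.16, 9.90, 4.32 and 5.02 CPM) were at the lower level in Timd4+ macrophages beyond counting error in libraries 2 to 4. In library 1, where 3 UMIs of Timd4+ macrophages are 2.65 CPM, they rested on 0 and 4 UMIs there and the intervals held 0. Markers of small peritoneal or monocyte-derived macrophages, 7 genes with none at 0, summed to 4892, 8520, 2282 and 3781 CPM in Timd4+ macrophages and 17510, 14240, 5098 and 8906 CPM in the others; their part in the sterol difference was not tested.

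**Figure D4:**
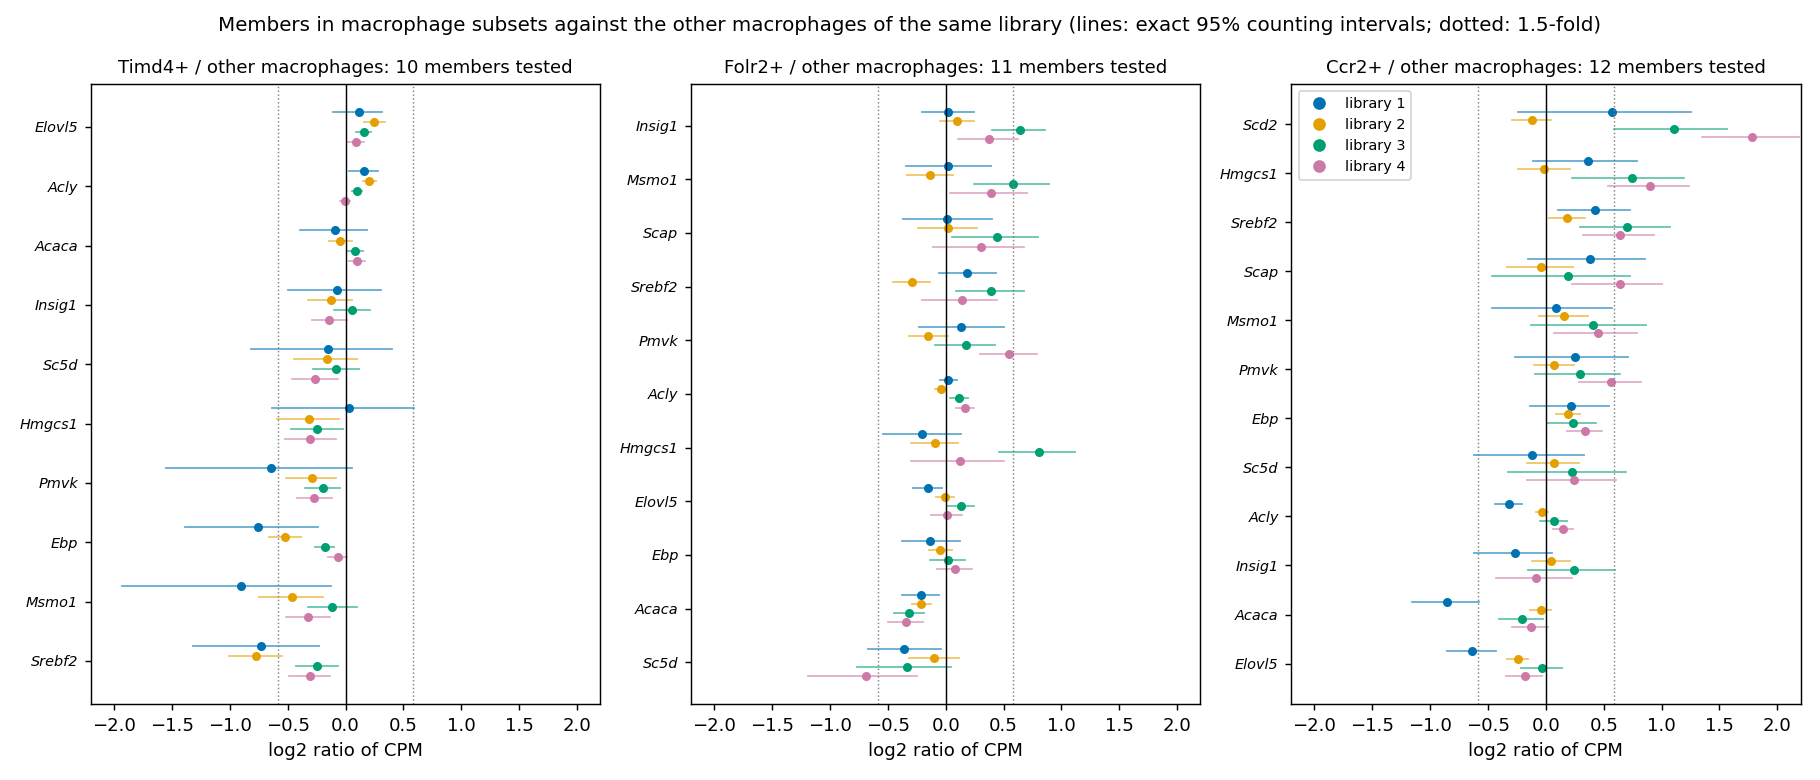
Log2 ratio (horizontal axis) of each tested gene in Timd4+, Folr2+ or Ccr2+ macrophages over the other macrophages of the same library, 1 point per library with its exact 95% counting interval; dotted lines mark 1.5-fold. No gene lies beyond the dotted line in all 4 libraries, and Msmo1, Pmvk, Ebp and Srebf2 lie left of 0 in the Timd4 panel in every library.

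Ccr2+ macrophages (3 or more UMIs of the receptor for the monocyte attractant CCL2) numbered 169, 801, 144 and 285. Of 12 members tested, none passed the rule, against 0.346% of 6941 genes higher and 0.533% lower. Of 8 sterol genes tested, 4 (Msmo1, Pmvk, Ebp and Srebf2) had log2 ratios above 0 in all libraries, against 22.1% of all genes, and Acaca and Elovl5 had ratios below 0 in all libraries, against 11.2%. Sterol medians were 0.24, 0.07, 0.27 and 0.51 and those of all genes -0.05, 0.02, 0.16 and 0.12. The sterol sum stood at 364.1, 398.3, 338.7 and 322.5 CPM, at log2 ratios of 0.20, 0.12, 0.50 and 0.47 to the other macrophages. Nearly all Timd4+ cells were among these other macrophages, so the Ccr2 and Timd4 splits share cells and are not independent.

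Srebf2 was at 56.9, 38.5, 25.1 and 23.8 CPM in Ccr2+ macrophages and 42.5, 33.9, 15.5 and 15.3 CPM in the others. Scd2 was at 10.8, 32.0, 16.7 and 14.3 CPM against 7.45, 34.8, 7.84 and 4.18 CPM, apart beyond its counting interval in libraries 3 and 4 only. Hmgcs1 was likewise apart in libraries 3 and 4, at 16.7 and 18.3 CPM against 10.1 and 9.87 CPM. Acaca was at 60.2 CPM in the Ccr2+ macrophages of library 1 against 109 CPM in the others, and in libraries 2 to 4 the log2 ratio was between -0.21 and -0.04. The 15 cell cycle genes summed to 129, 725, 1474 and 1214 CPM in Ccr2+ macrophages and 164.7, 542.9, 372.4 and 254.7 CPM in the others, with the widest gap in libraries 3 and 4, where the sterol gap was widest too; their part in it was not tested. Dendritic cell markers, 6 genes, were at 43.4, 5.72, 45.2 and 69.3 CPM in Ccr2+ macrophages.

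Folr2+ macrophages (2 or more UMIs of folate receptor beta) numbered 854, 952, 321 and 303. Of 11 members tested, none passed the rule, against 0.421% of 6886 genes higher and 0.232% lower. Insig1 and Scap had log2 ratios above 0 in all libraries, against 40.3% of all genes, and Sc5d and Acaca below 0, against 8.03%. Acaca was at 96.2, 104, 95.7 and 75.3 CPM against 112, 121, 119 and 95.8 CPM. The sterol sum was close to or under that of the other macrophages in libraries 1 and 2, at log2 ratios of -0.06 and -0.10, and over it in libraries 3 and 4, at 0.28 and 0.24. Me1, under 10 CPM, was at 0.124, 0.210, 2.61 and 0.196 CPM in Folr2+ macrophages against 0.384, 1.56, 6.04 and 4.73 CPM. In Folr2+ macrophages 3 UMIs are 0.373, 0.21, 0.558 and 0.588 CPM, so Me1 rested there on 3 UMIs or fewer in libraries 1, 2 and 4. Folr2+ cells made up most macrophages of library 1 but few of libraries 3 and 4, and the subsets overlap: 450 cells were Timd4+ and Folr2+, 317 Folr2+ and Ccr2+, and 78 Timd4+ and Ccr2+.

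To describe which members vary together from cell to cell, macrophages were thinned to 3000 UMIs and those with an Hmgcs1 UMI, 88, 216, 148 and 163 cells, were set against those without; 85, 55, 24 and 29 shallower macrophages were left out. None of 10 members tested passed the rule, against 0.0873% of 6876 genes higher and 0.0% lower. Only 1 of these 10, Msmo1, had ratios above 0 in every library, a share near the 11.8% of all genes. It was at 26.5, 44.8, 22.5 and 20.5 CPM in cells with an Hmgcs1 UMI and 19.5, 18.5, 12.3 and 12.99 CPM in the rest. Cells with an Hmgcs1 UMI held 263904, 647775, 443851 and 488832 other UMIs in all, so these levels of Msmo1 rest on few UMIs outside library 2. The summed sterol branch without Hmgcs1 had a log2 ratio of 0.02 in library 1 (interval -0.32 to 0.34), 0.56 in library 2 (0.40 to 0.72), 0.45 in library 3 (0.19 to 0.70) and 0.27 in library 4 (0.01 to 0.52), above 0 beyond counting error in libraries 2, 3 and 4. The fatty acid branch stood at -0.20, 0.10, 0.09 and 0.08, with 0 inside every interval. Median log2 ratios of all genes were 0.03, 0.04, 0.06 and 0.10. Without Insig1, Srebf2, Scap and Stard4 the sterol ratio of library 4 was 0.29, with 0 inside its interval (-0.008 to 0.576). Cells with an Hmgcs1 UMI thus had somewhat more of the other sterol transcripts in libraries 2 and 3. In library 4 the excess was at the edge of counting error. Fatty acid transcripts were not seen to differ at this depth.

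The same split by Scd2 put 52, 391, 100 and 84 cells with a UMI against the rest. None of 11 members tested passed the rule, against 0.13% of 6902 genes higher and 0.0145% lower. Msmo1 again had the higher level in every library, 38.5, 32.4, 16.7 and 27.8 CPM against 19.3, 18.6, 12.6 and 12.98 CPM. The sterol branch stood at 0.43 (0.30 to 0.55) in library 2, and in the other libraries its interval held 0. The fatty acid branch without Scd2 stood at 0.036, 0.102, 0.115 and 0.108, with 0 inside every interval. The intervals of Msmo1 were wide: in library 1 it rested on 6 UMIs in cells with Scd2, and the log2 ratio of 1.10 had an interval of -0.49 to 2.18. Hmgcs1, Pmvk and Elovl5 also had ratios above 0 in every library, against 14.8% of all genes.

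Last, macrophages with 2 or more UMIs of the 15 cell cycle genes, thinned to 3000 UMIs (98, 630, 384 and 314 cells), were set against the rest, a split also added after seeing the data. None of 12 members tested passed the rule, against 1.02% of 6927 genes higher and 0.0144% lower. Of these 12, 3 (Fasn, Msmo1 and Ebp) had log2 ratios above 0 in every library, beside 19.3% of all genes. Fasn, at 7.63, 11.8, 9.09 and 6.28 CPM in the rest, had log2 ratios of 0.98, 0.75, 0.36 and 1.18. Stard4, which was below 10 CPM in some libraries and so not counted, was at 10.2, 18.5, 8.68 and 11.7 CPM in cells with 2 or more cell cycle UMIs and 7.38, 10.7, 4.59 and 6.21 CPM in the rest. The cells with 2 or more held 294000, 1890000, 1152000 and 942000 UMIs in all. Outside library 2 their levels of Fasn and Stard4 thus rest on few UMIs, with the fewest in library 1. The sterol sum stood at 0.01, 0.09, 0.15 and 0.50, above 0 beyond counting error in library 4 only.

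**Figure D5:**
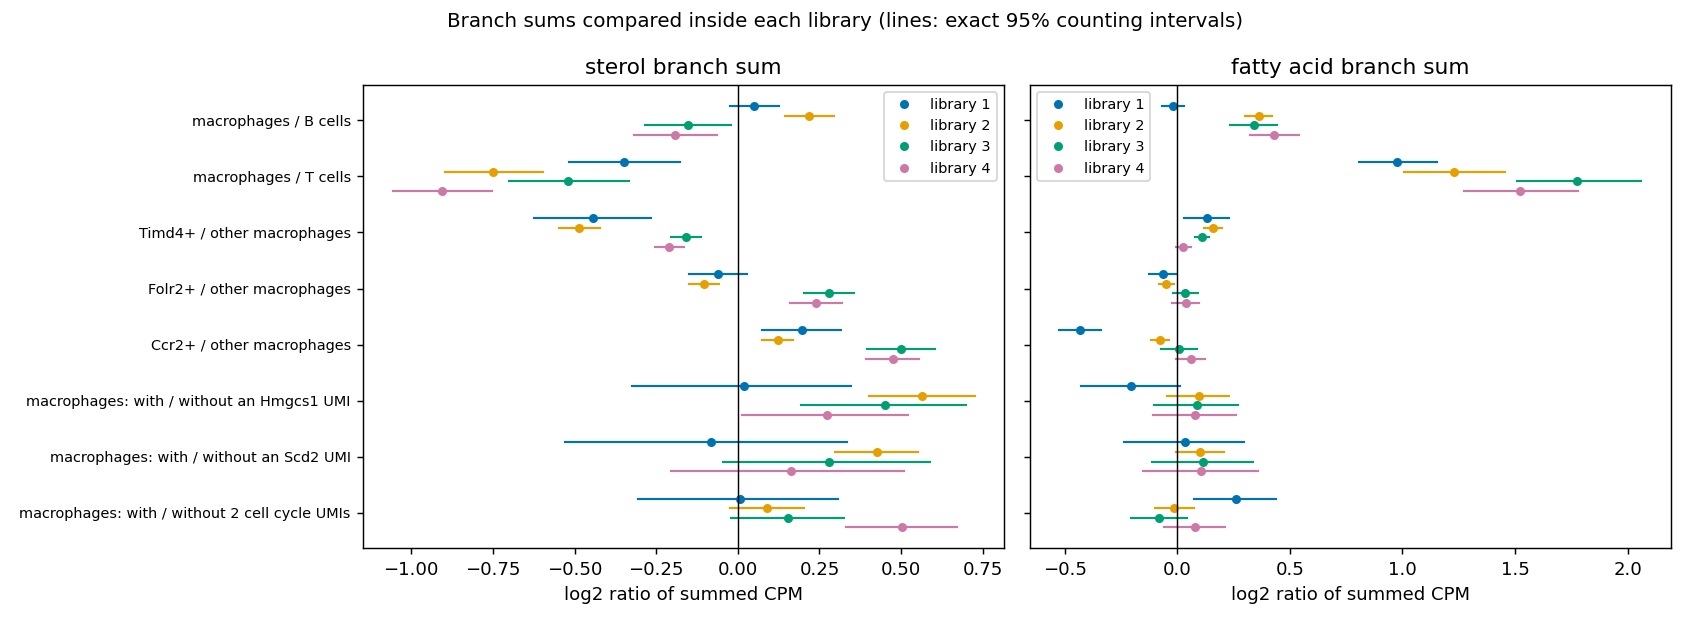
Log2 ratio (horizontal axis) of the summed sterol (left) and fatty acid (right) branch in each comparison (rows), 1 point per library with its exact 95% counting interval. The sterol sum lies left of 0 in every library against T cells and in Timd4+ macrophages and right of 0 in Ccr2+ macrophages; the fatty acid sum lies right of 0 in every library against T cells.

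The 4 libraries differed in sterol and fatty acid genes of macrophages, and these differences cannot be tied to diet, genotype or antibody. Of the 11 sterol genes at 10 CPM or more in a library, 10 spanned at least 1.5-fold between the highest and lowest library, as did 4 of 5 fatty acid genes and 65.5% of 8119 genes in all. Median spans were 2.22-fold for the sterol genes, 1.8-fold for the fatty acid genes and 1.69-fold for all genes. The sterol sum was 1.57-fold higher in library 2 than in library 4, and the fatty acid sum 1.61-fold higher in library 1 than in library 4. Library 2 was highest for 6 of the 11 sterol genes and library 1 for 5, while over all genes library 1 was highest for 65.7% and library 2 for 18.6%.

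Part of this span moves with the scaling: over 6602 genes the median level relative to the median library was 1.26 in library 1 and 0.93 in library 4. With totals rescaled by these medians, the spans fell to 1.40 for the sterol and 1.23 for the fatty acid sum. Apoe, deleted in 3 of the 4 groups, was at 30.1, 863, 738 and 29780 CPM in the macrophages of libraries 1 to 4; a count of Apoe UMIs can still come from a disrupted allele, and no library was assigned to a group from it. The small macrophage markers named above were at 16440 and 13390 CPM in the macrophages of libraries 1 and 2 and at 3648 and 5979 CPM in libraries 3 and 4, and the cells of each library thus differed in kind as well. Without rescaling, the sterol sum was 237.8 to 372.5 CPM over libraries in all macrophages. It was 222.8 to 277.9 CPM in Timd4+ macrophages and 244.1 to 395.0 CPM in macrophages outside all 3 subsets. The part of cell kind in the differences between libraries was not tested.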

How the data were processed

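Single-cell RNA was measured with a 10x Genomics 3′ V3 kit in sorted F4/80+ peritoneal cells, 1 sample per group. The authors deposited 1 matrix of raw UMI counts, not normalized, with 31253 genes by 26811 barcodes; its header names Cell Ranger 5.0.1. CASAVA 1.8, Seurat and mm10 come from the submitters' processing notes. No source used here states the counting settings, the gene annotation or any removal of free RNA. Barcode suffixes were taken as 4 libraries and never assigned to a group from order or values, so no test between groups and no p-value was computed. Each comparison of cell classes is within a library, and the rule of 4 libraries reads these paired ratios without a test, since no library carries a group label and the 4 samples are of 4 different groups, not replicates.

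The members and all lists were chosen with earlier results of these data known. Barcodes were kept with at least 500 genes and at most 10% mitochondrial UMIs. Cell classes follow the marker rules in the text; no doublet caller was run. The macrophage rule leaves out cells with Cd79a or Cd3e and the B and T cell rules leave out cells with Adgre1, but B and T cells were not kept apart by rule: 27 cells met both rules, and Cd79a was at 572.6, 152.0, 226.4 and 130.5 CPM in the T cells of libraries 1 to 4. UMIs were summed per class and library, as cells are not replicates. Log2 ratios used a prior count of 0.5, with exact conditional (Clopper-Pearson) 95% intervals for counting error, and folds are plain ratios of CPM. Genes named with values are those past the 1.5-fold rule, the 3 highest and 3 lowest of each branch, the 3 with the widest and the 3 with the narrowest span over libraries, and paralogue pairs; others were chosen after their values were seen. The comparisons of B with T cells and by cell cycle genes were added after seeing the data. Gene positions are from GENCODE M21 (GRCm38, mm10), to which 31184 genes and 32 members matched by ID, and near copies were sought with BLAST 2.17.0. Analyses used Python 3.11.15, numpy 2.4.6, scipy 1.17.1 and pandas 2.3.3, and the code was tested on simulated data. Alternatives changed the filters, class limits, weighting, scaling, thinning, doublet rule, fold and CPM limits, and left out each library in turn. Some genes of the further sterol list are not reported here.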

Additional observations from a re-analysis of the deposited data

How the results depend on the processing

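Each of the 19 gene results (a member past the rule against B or T cells) was recomputed under 19 other settings, which gave 331 values of the same call, 30 in the same direction but no longer past the rule, and none in the other direction. Of 278 counts of members past the rule, 259 stayed within 1.5 times the main count. The number lower in macrophages than in B cells was 5 and became 2 with at least 1000 genes and at most 5% mitochondrial UMIs, 3 with each cell weighted equally, 2 at 2-fold and 3 at 20 CPM, and the number lower than in T cells was 6 and became 3 without cells with 2 cell cycle UMIs. With no minimum CPM, 7 members were higher than in B cells, 10 lower than in T cells, 1 higher and 3 lower in Timd4+, 1 lower in Folr2+ and 1 higher in Ccr2+ macrophages, and 1 higher in cells with an Scd2 UMI, at levels where few UMIs decide. The Hmgcs1 split gave 2 higher members with at least 200 genes and at most 20% mitochondrial UMIs, the Scd2 split 1 with at least 1000 genes and at most 5%; leaving out a library gave 0 to 2 for both, since fewer libraries need agree. The span of the sterol sum was 1.57 and became 1.51 (totals without mitochondrial, ribosomal protein and Apoe UMIs), 1.40 (rescaled) and 1.61 (without cells with 2 cell cycle UMIs), and that of the fatty acid sum was 1.61 and became 1.44, 1.23 and 1.66. Leaving out each library gave sterol spans of 1.36 (without library 2) to 1.57 and fatty acid spans of 1.39 (without library 1) to 1.61; the cause was not tested. T cells, with 592198 to 812333 UMIs a library, limit the comparisons with them: a gene at 10 CPM there rests on fewer than 10 UMIs.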
